A study of Homo sapiens with 36 samples.

Results

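The cyclin-dependent kinase inhibitors are the genes CDKN1A, CDKN1B, CDKN1C, CDKN2A, CDKN2B, CDKN2C and CDKN2D, chosen by symbol in the probe annotation of the arrays. Of these 7 genes, 6 had a named probe and all 6 were among the 12360 genes tested; CDKN2C was not analysed here. They carried 13 probes of 47323 on the array, and 9 of the 13 were above background (detection p under 0.01) on at least 3 arrays. The study exposed 3 human prostate cancer cell lines to the histone deacetylase inhibitor vorinostat and to low oxygen, and measured total RNA on 36 single-colour bead arrays before any irradiation. In each of DU 145, PC-3 and 22Rv1, the 4 groups of 3 arrays were hypoxia (0.2% oxygen, 24 h) with 1 µM vorinostat for 24 h, normoxia with vorinostat, hypoxia with solvent, and normoxia with solvent. The labels describe DU 145 as radiation resistant and PC-3 and 22Rv1 as radiation sensitive, and the design text states that vorinostat radiosensitised DU 145 but not the other lines. Those 2 properties were not measured on these arrays, and each label stands for a single cell line, so a difference between labels is a difference between these lines. The titles name solvent where another label reads untreated, and the arrays are called solvent arrays here.

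Cyclin-dependent kinases drive cells through the division cycle, and their inhibitors hold them back. The CIP/KIP inhibitors p21 (CDKN1A), p27 (CDKN1B) and p57 (CDKN1C) bind many cyclin and kinase pairs, above all those of CDK2, while the INK4 inhibitors p16INK4a (CDKN2A), p15 (CDKN2B), p18 (CDKN2C) and p19 (CDKN2D) bind CDK4 and CDK6 and keep them from D cyclins. With the kinases held back, the retinoblastoma protein stays bound to E2F factors and the genes of DNA synthesis stay low. CDKN2A also codes, from a separate first exon, for p14ARF, which shields p53 from MDM2. CDKN1A is a classical p53 target and a gene whose transcription histone deacetylase inhibitors are known to raise also in cells without p53. DU 145 is known to lack functional RB1, and PC-3 to lack p53.

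Values are log2 signals after background correction and quantile normalization, in which 1 unit is a doubling. Effects are log2 differences ± standard error from limma, with Benjamini-Hochberg adjusted p over all 12360 genes, and a gene was called where that p was under 0.05. The arrays had 14242 to 16900 probes above background, and replicates of a group correlated at 0.985 to 0.995. Nothing states that replicates were separate cultures, so p-values measure the spread between these arrays, which may be technical. Of 6 androgen-axis genes, 4 had a named probe. FKBP5 was above background on 3 of 3 arrays in every group of all 3 lines, averaging 10.11 in DU 145, 8.06 in PC-3 and 10.97 in 22Rv1 on normoxia solvent arrays. TMPRSS2 was above background on 3 of 3 arrays in every PC-3 and 22Rv1 group (6.69 and 8.61 on normoxia solvent arrays) and on 0 arrays of DU 145. KLK2 was above background on 3 of 3 arrays in each 22Rv1 group and on 0 arrays of DU 145 and PC-3, and KLK3 on 0 arrays of any line. The mesenchymal marker VIM averaged 13.11 in DU 145, 13.27 in PC-3 and 8.40 in 22Rv1 on normoxia solvent arrays. Of 8 markers of fibroblasts, leukocytes and endothelium, PTPRC, CD3E and VWF were above background on 0 arrays and COL1A1, CD14, PECAM1, COL3A1 and DCN on 21, 21, 12, 7 and 1 arrays. The summed linear signal of these 8 markers was 235 to 266 on DU 145 vorinostat arrays against 206 to 221 on DU 145 solvent arrays, 292 to 396 against 268 to 354 in PC-3, and 200.2 to 239 against 196 to 232 in 22Rv1. Their part in the results below was not tested. The hypoxia marker NDRG1 rose by 3.39 ± 0.17 in DU 145 and by 2.36 ± 0.17 in PC-3, and ADM by 4.42 ± 0.17 in 22Rv1, on hypoxia solvent against normoxia solvent arrays.

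CDKN1A was higher on vorinostat than on solvent arrays in all 3 lines. CDKN2D rose in DU 145 and PC-3, CDKN1C in 22Rv1, CDKN1B in PC-3 and 22Rv1, and CDKN2B in DU 145 and 22Rv1. CDKN2A fell in DU 145. These are calls on the brightest probe of each gene. In 22Rv1 the CDKN1B call was lost under 5 of 20 alternatives and the CDKN2B call under 7 of 20. The second detected probe was not called for CDKN1B in PC-3 or for CDKN2B in DU 145. Averaged over both oxygen levels, 5 of 6 tested members were called in DU 145 (4 higher, 1 lower), where 52.6% of all tested genes were called. One of the 4, CDKN1C, was above background on 0 normoxia arrays of DU 145, so its change there was not measured, and without it 4 of 5 were called (3 higher, 1 lower). In PC-3, 3 of 6 were called, all higher, beside 39.5% of all genes, and in 22Rv1 4 of 6, all higher, beside 45.3% of all genes. The members' median log2 change was 0.51 in DU 145, 0.25 in PC-3 and 0.30 in 22Rv1, against 0.01, -0.00047 and -0.0046 over all tested genes, and without CDKN1C the DU 145 median was 0.44. In RNA from whole cultures, fewer cells of a kind and less RNA per cell cannot be told apart.

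**Figure D1:**
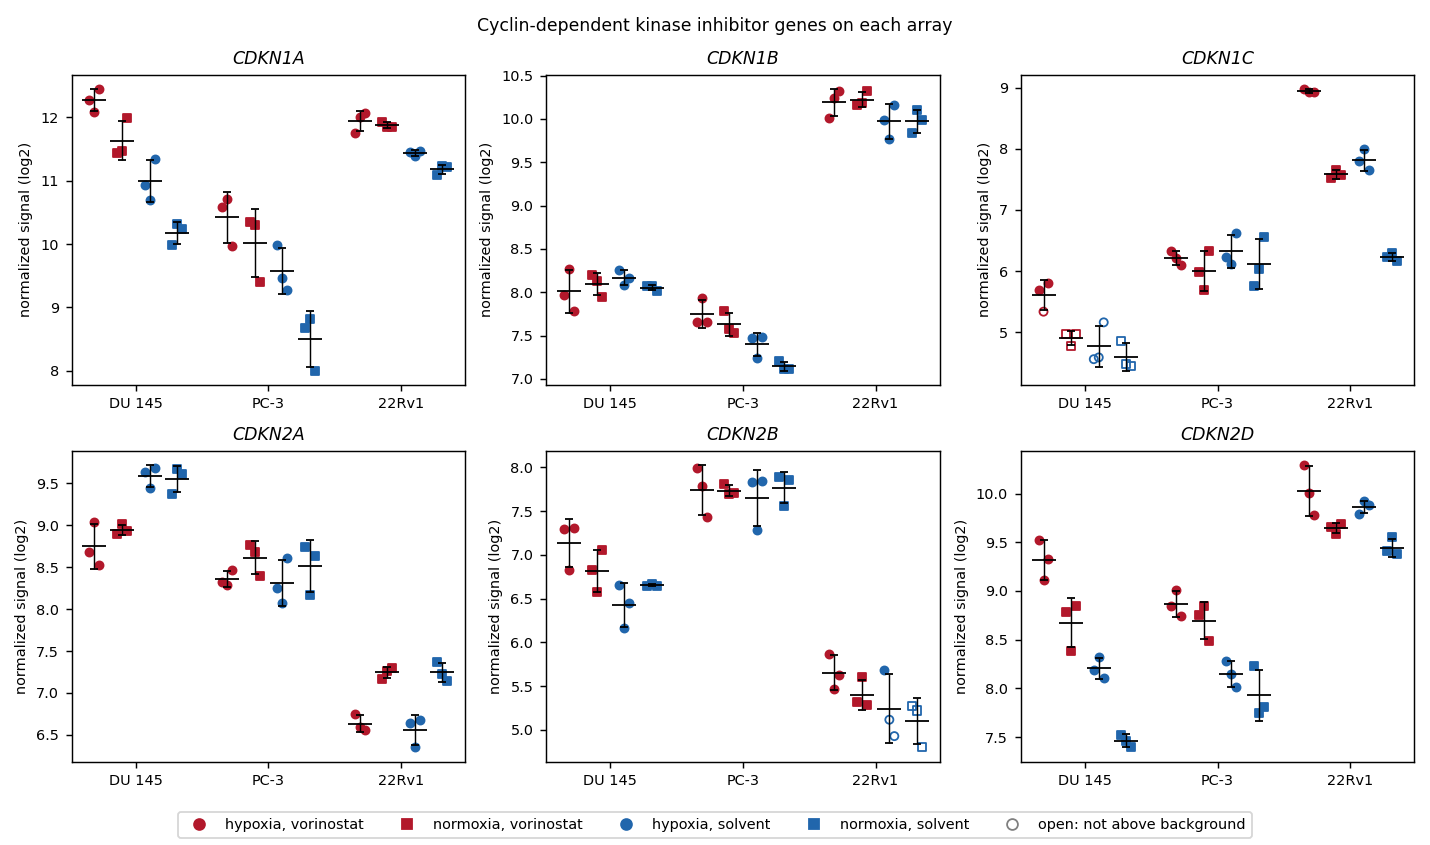
Log2 normalized signal (vertical axis) of each tested inhibitor on the 36 arrays, by line and, within a line, by group (hypoxia vorinostat, normoxia vorinostat, hypoxia solvent, normoxia solvent from left to right). Points are arrays, open where the probe was not above background, and bars are means ± SD (n = 3); CDKN1A is highest on DU 145 hypoxia vorinostat arrays (12.27 ± 0.18) and lowest on PC-3 normoxia solvent arrays (8.50 ± 0.44).

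**Figure D2:**
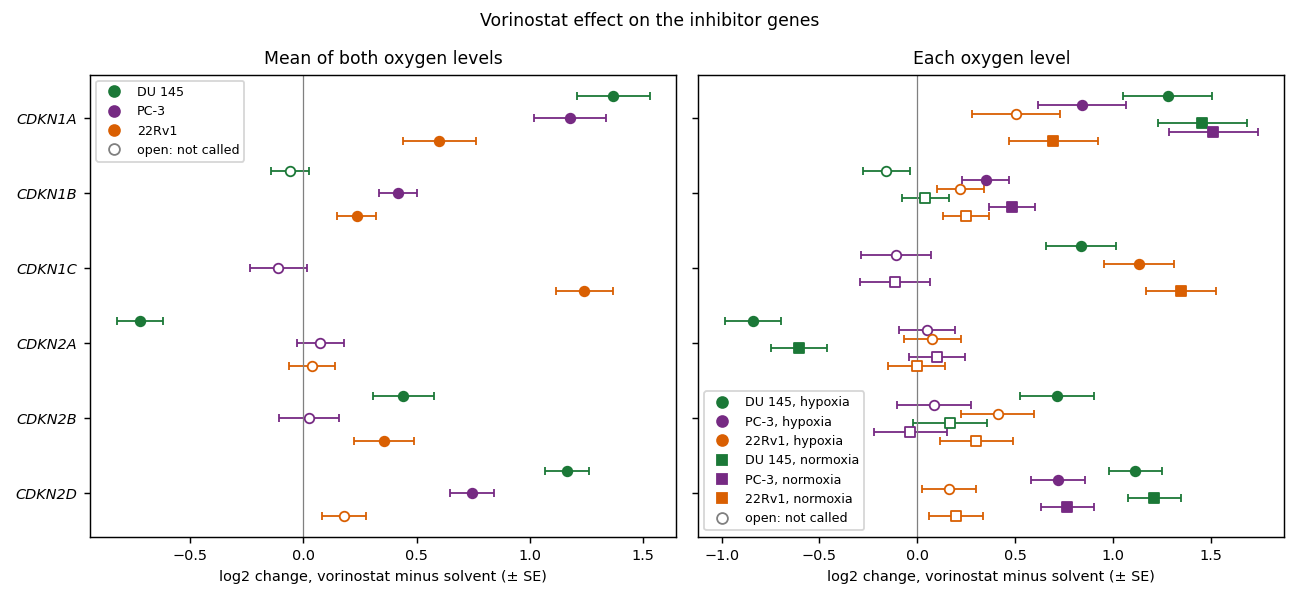
Vorinostat minus solvent log2 change of each tested inhibitor in the 3 lines, as the mean of both oxygen levels (left) and at each oxygen level (right), with standard errors from limma. CDKN1A lies above 0 in all 3 lines (1.37, 1.18 and 0.60), and CDKN2A lies below 0 in DU 145 (-0.72). CDKN1C in DU 145 is drawn in hypoxia alone, since both normoxia groups were below background. This point and that of CDKN2B in normoxic 22Rv1 are fitted changes with the solvent group above background on 0 arrays.

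CDKN1A codes for p21, the CIP/KIP inhibitor that arrests cells in G1 and G2 and also binds the replication clamp PCNA. Its RefSeq start lies on the plus strand of chromosome 6 in GRCh38.p14. The 250 bases before it, chr6:36678464-36678713, are shown because CDKN1A is the member that rose in every line and because histone deacetylase inhibitors are known to act on it through GC boxes bound by SP1. Capitals mark the GC box core, GGGCGG or, on the other strand, CCGCCC.
CDKN1A promoter: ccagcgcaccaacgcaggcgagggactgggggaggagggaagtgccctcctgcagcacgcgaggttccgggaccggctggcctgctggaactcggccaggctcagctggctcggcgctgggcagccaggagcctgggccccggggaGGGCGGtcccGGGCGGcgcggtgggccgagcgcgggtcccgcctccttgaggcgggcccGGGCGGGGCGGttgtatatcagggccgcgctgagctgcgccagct
The window holds 4 cores, the 2 nearest the start overlapping by 1 base. Of 35116 RefSeq promoter windows of 250 bases, 42.6% hold at least 1, with a median of 0. A match describes the letters and is not a bound site.

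In DU 145, CDKN1A stood at 12.28, 12.09 and 12.45 on hypoxia vorinostat arrays and 11.44, 11.47 and 11.98 on normoxia vorinostat arrays, against 10.93, 10.69 and 11.34 on hypoxia solvent arrays and 9.98, 10.31 and 10.23 on normoxia solvent arrays. In PC-3, CDKN1A stood at 10.59, 10.70 and 9.97 on hypoxia vorinostat arrays and 10.34, 10.30 and 9.40 on normoxia vorinostat arrays, against 9.98, 9.47 and 9.28 on hypoxia solvent arrays and 8.68, 8.82 and 8.0 on normoxia solvent arrays. In 22Rv1, CDKN1A stood at 11.75, 11.996 and 12.06 on hypoxia vorinostat arrays and 11.93, 11.84 and 11.85 on normoxia vorinostat arrays, against 11.45, 11.38 and 11.46 on hypoxia solvent arrays and 11.09, 11.22 and 11.21 on normoxia solvent arrays. Vorinostat and solvent arrays did not overlap at either oxygen level in DU 145 and 22Rv1, while in hypoxic PC-3 the lowest vorinostat array lay below the highest solvent array. The third PC-3 array was the lowest of its group in all 4 PC-3 groups.

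Averaged over both oxygen levels, vorinostat raised CDKN1A by 1.37 ± 0.16 in DU 145 (2.58-fold, adjusted p = 1.93e-08), by 1.18 ± 0.16 in PC-3 (2.26-fold, adjusted p = 6.33e-07) and by 0.60 ± 0.16 in 22Rv1 (1.52-fold, adjusted p = 0.00266). In each line 6 of 6 vorinostat arrays lay above the solvent mean of their oxygen level. The rise in DU 145 exceeded that in 22Rv1 by 0.77 ± 0.23 (adjusted p = 0.00759). The rise in PC-3 exceeded that in 22Rv1 by 0.58 ± 0.23, which was not called (adjusted p = 0.0565) but was called with the replicate number as a block (adjusted p = 0.00121). DU 145 and PC-3 differed by 0.19 ± 0.23 (95% interval -0.27 to 0.65, adjusted p = 0.569). In 22Rv1 the drug effect was 0.50 ± 0.23 in hypoxia (adjusted p = 0.0889, or 0.0032 with the replicate block) and 0.70 ± 0.23 in normoxia (adjusted p = 0.0183). The hypoxic adjusted p ran from 0.000491 to 0.215 over the alternatives. The normoxic call was lost without the first normoxia solvent array (0.65, adjusted p = 0.0608) or the first normoxia vorinostat array (0.67, adjusted p = 0.0566), and over all 14 alternatives its adjusted p ran from 4.71e-05 to 0.0608. In hypoxic PC-3 the rise of 0.84 ± 0.23 (adjusted p = 0.00536) lost its call when only PC-3 arrays set the spread (adjusted p = 0.0701, 2.08e-05 to 0.0701 over the alternatives).

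Hypoxia without drug also raised CDKN1A, by 1.08 ± 0.23 in PC-3 (adjusted p = 0.00114) and by 0.82 ± 0.23 in DU 145 (adjusted p = 0.0132). The DU 145 call was lost without the first normoxia solvent array (0.72, adjusted p = 0.0549), without the third hypoxia solvent array (0.64, adjusted p = 0.0986) and with median scaling (0.74, adjusted p = 0.0516), in a range of 7.54e-05 to 0.0986 over the alternatives. In 22Rv1 the hypoxia effect was 0.26 ± 0.23 (adjusted p = 0.478), although its arrays did not overlap. Its limma adjusted p ran from 0.0383 to 0.756 over the alternatives, so the call depended on the setting. The standard error is shared by all groups, while the SDs of these 22Rv1 groups were 0.04 in hypoxia and 0.07 in normoxia. On vorinostat arrays the hypoxia effect was 0.64 ± 0.23 in DU 145 (adjusted p = 0.0751), 0.40 ± 0.23 in PC-3 (adjusted p = 0.257) and 0.07 ± 0.23 in 22Rv1 (adjusted p = 0.884). Same-numbered arrays deviated together in these DU 145 and PC-3 comparisons, and with the replicate block both were called (adjusted p = 0.00168 in DU 145 and 0.0307 in PC-3). The highest mean was on DU 145 hypoxia vorinostat arrays (12.27 ± 0.18, SD, n = 3), the lowest on PC-3 normoxia solvent arrays (8.50 ± 0.44), and 3 of the 11 neighbouring pairs in the order of the 12 group means did not overlap. The second CDKN1A probe, annotated to another transcript, was above background on 0 of 36 arrays.

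CDKN1B codes for p27, a CIP/KIP inhibitor that is abundant in resting cells and is mostly regulated by protein destruction through SKP2. Its main probe showed 22Rv1 far above the other lines on all arrays. In DU 145, CDKN1B stood at 7.97, 8.27 and 7.79 on hypoxia vorinostat arrays and 8.20, 8.13 and 7.95 on normoxia vorinostat arrays, against 8.26, 8.08 and 8.17 on hypoxia solvent arrays and 8.07, 8.07 and 8.02 on normoxia solvent arrays. In PC-3, CDKN1B stood at 7.66, 7.94 and 7.66 on hypoxia vorinostat arrays and 7.78, 7.58 and 7.53 on normoxia vorinostat arrays, against 7.47, 7.25 and 7.49 on hypoxia solvent arrays and 7.20, 7.11 and 7.12 on normoxia solvent arrays. In 22Rv1, CDKN1B stood at 10.01, 10.24 and 10.32 on hypoxia vorinostat arrays and 10.16, 10.18 and 10.32 on normoxia vorinostat arrays, against 9.98, 9.77 and 10.16 on hypoxia solvent arrays and 9.83, 10.10 and 9.98 on normoxia solvent arrays. Vorinostat and solvent arrays did not overlap in PC-3 at either oxygen level, and they overlapped in DU 145 at both. In hypoxic PC-3 the limma call of CDKN1B was still lost under 5 of 14 alternatives (adjusted p 0.0188 to 0.370).

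CDKN1B rose with vorinostat by 0.42 ± 0.08 in PC-3 (adjusted p = 0.00018) and by 0.23 ± 0.08 in 22Rv1 (adjusted p = 0.0228), on 6 of 6 arrays in each, and its difference in DU 145 was -0.06 ± 0.08 (adjusted p = 0.603). The effect in DU 145 was lower than in PC-3 by 0.48 ± 0.12, a difference of -0.48 (adjusted p = 0.00264). Scaling by the median took that call away (-0.32, adjusted p = 0.0756), and its adjusted p ran from 0.000506 to 0.0756 among all alternatives. The 22Rv1 call was lost with median scaling (0.14, adjusted p = 0.268) and without the first normoxia solvent array (0.20, adjusted p = 0.0714), the second hypoxia solvent array (0.18, adjusted p = 0.0885), the third normoxia vorinostat array (0.21, adjusted p = 0.0615) or the third hypoxia vorinostat array (0.20, adjusted p = 0.0678), in a range of 0.000477 to 0.268 over the alternatives.

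Both CDKN1B probes were above background on 36 of 36 arrays, and they disagreed. On the second probe, DU 145 stood at 6.77, 7.18 and 7.0 on hypoxia vorinostat arrays and 7.0, 7.20 and 6.99 on normoxia vorinostat arrays, against 7.42, 7.49 and 7.35 on hypoxia solvent arrays and 7.33, 7.20 and 7.19 on normoxia solvent arrays. This probe fell with vorinostat in DU 145 by 0.31 on the log2 scale (SE 0.11, adjusted p over all detected probes = 0.0177). In 22Rv1 it rose by 0.46 (SE 0.11, adjusted p = 0.000745), and in PC-3 its difference was 0.13 (adjusted p = 0.404). Of all 21376 detected probes, the same test called 46.3% in DU 145, 33% in PC-3 and 38% in 22Rv1. With the mean of both probes, the drug effect in DU 145 minus that in 22Rv1 was -0.53 (adjusted p = 0.000282), against -0.29 ± 0.12 on the main probe (adjusted p = 0.0503, 0.000282 to 0.531 over the alternatives). Hypoxia without drug changed the main probe by 0.26 ± 0.12 in PC-3, which was not called (adjusted p = 0.146, 0.0376 to 0.340 over the alternatives), although its arrays did not overlap. The second probe averaged 6.94 on hypoxia and 6.54 on normoxia solvent arrays of PC-3, and those arrays overlapped.

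**Figure D3:**
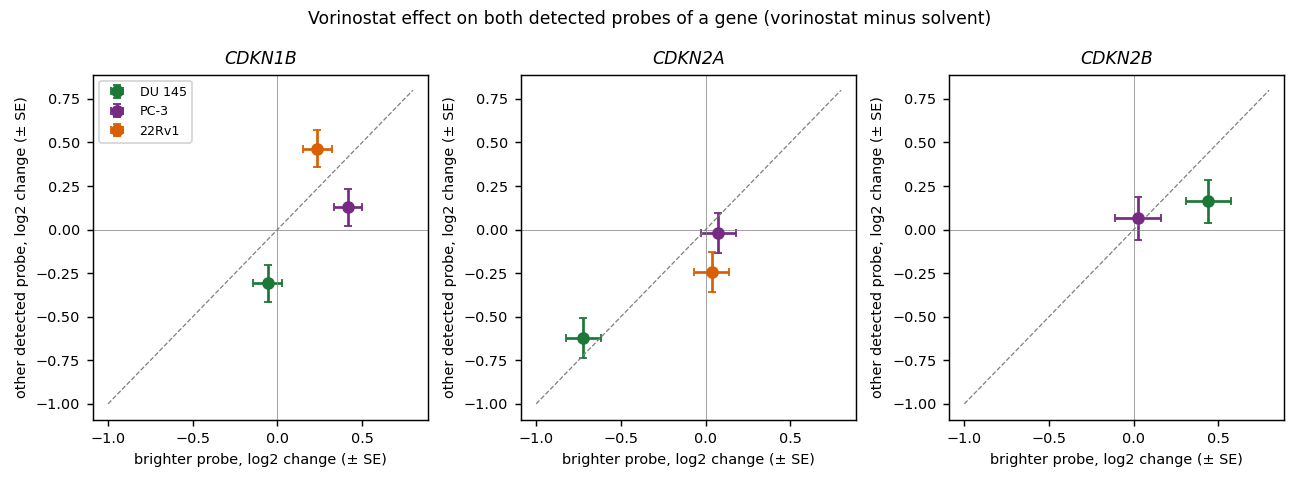
Vorinostat minus solvent log2 change ± standard error on the brighter (horizontal axis) and the other detected probe (vertical axis) of CDKN1B, CDKN2A and CDKN2B in the 3 lines, with the line of equal change dashed. CDKN2A in DU 145 lies low on both axes (-0.72 and -0.62), while CDKN1B in DU 145 lies near 0 on the horizontal axis (-0.06) and below 0 on the vertical axis (-0.31). CDKN2B in 22Rv1 is not drawn, since its other probe was above background on 0 hypoxia arrays there.

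CDKN1C codes for p57, an imprinted CIP/KIP inhibitor expressed mainly from the maternal copy and tied to differentiation. It was above background on 26 of 36 arrays, and the 10 others were all of DU 145. In 22Rv1, CDKN1C stood at 8.98, 8.92 and 8.93 on hypoxia vorinostat arrays and 7.51, 7.65 and 7.57 on normoxia vorinostat arrays, against 7.79, 7.99 and 7.65 on hypoxia solvent arrays and 6.23, 6.29 and 6.17 on normoxia solvent arrays. In PC-3, CDKN1C stood at 6.34, 6.21 and 6.10 on hypoxia vorinostat arrays and 5.99, 5.68 and 6.33 on normoxia vorinostat arrays, against 6.23, 6.12 and 6.63 on hypoxia solvent arrays and 5.75, 6.04 and 6.55 on normoxia solvent arrays. In DU 145, CDKN1C read 5.69, 5.34 and 5.80 on hypoxia vorinostat arrays, 2 of them above background, and no more than 5.16 on the other 9 arrays, none of them above background. In 22Rv1 the groups formed 3 steps: normoxia solvent, then either exposure alone, whose arrays overlapped, then both exposures together.

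In 22Rv1, vorinostat raised CDKN1C by 1.24 ± 0.13 (2.36-fold, adjusted p = 1.6e-09, 6 of 6 arrays) as the mean of both oxygen levels. Hypoxia raised it by 1.36 ± 0.18 on vorinostat arrays (adjusted p = 1.01e-06) and by 1.58 ± 0.18 on solvent arrays (2.99-fold, adjusted p = 7.13e-08). In PC-3 neither exposure was called, with -0.11 ± 0.13 for vorinostat (adjusted p = 0.544) and 0.21 ± 0.18 for hypoxia with solvent (adjusted p = 0.483). In DU 145, hypoxia vorinostat arrays were at least 1.13-fold higher than hypoxia solvent arrays and at least 1.18-fold higher than normoxia vorinostat arrays, taking the lowest signal above background as the level of the dim group. Both differences were called by limma, with an adjusted p of 0.000317 for the drug and 0.011 for hypoxia. The hypoxia call was lost without the first or the third hypoxia vorinostat array (adjusted p = 0.0561 and 0.0747), without the second normoxia vorinostat array (adjusted p = 0.0682) and on the authors' processed values (adjusted p = 0.0723), in a range of 0.00274 to 0.0747 over the alternatives. For the remaining DU 145 comparisons of CDKN1C both groups were below background, and no fold is given. The drug effect over both oxygen levels, its dependence on oxygen and the hypoxia effect on solvent arrays were therefore not measured in DU 145, nor were their differences from the other lines.

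The drug effect on CDKN1C in PC-3 was lower than in 22Rv1, by a difference of -1.35 ± 0.18 (adjusted p = 7.3e-07). The hypoxia effect in PC-3 was also lower than in 22Rv1, by a difference of -1.37 ± 0.25 (adjusted p = 0.000647). The highest mean was on 22Rv1 hypoxia vorinostat arrays (8.94 ± 0.03), and 3 of 11 neighbouring pairs in the order of group means did not overlap.

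CDKN2A codes for p16INK4a and, from another start, p14ARF. Each start has its own RefSeq promoter window on the minus strand of chromosome 9 in GRCh38.p14, and both are shown because the arrays carry a probe annotated to each transcript. The window at chr9:21974858-21975107 lies nearer the shared exons, and that at chr9:21995325-21995574 lies at the far start. Capitals mark the GC box core as above.
CDKN2A near start: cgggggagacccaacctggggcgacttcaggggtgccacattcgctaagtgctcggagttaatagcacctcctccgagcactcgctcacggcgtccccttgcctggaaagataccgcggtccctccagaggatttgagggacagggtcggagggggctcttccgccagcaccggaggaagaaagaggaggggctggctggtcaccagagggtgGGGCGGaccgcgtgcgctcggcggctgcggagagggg
CDKN2A far start: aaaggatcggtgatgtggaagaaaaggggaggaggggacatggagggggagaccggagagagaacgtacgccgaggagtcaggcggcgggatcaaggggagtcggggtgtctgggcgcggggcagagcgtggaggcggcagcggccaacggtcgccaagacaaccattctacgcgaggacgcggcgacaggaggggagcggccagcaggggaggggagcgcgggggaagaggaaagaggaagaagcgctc
The near window holds 1 core and the far window 0, so these windows differ in that word, and nothing follows from it about any factor.

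The brighter probe, annotated to the p14ARF transcript, stood for the gene. In DU 145, CDKN2A stood at 8.68, 9.04 and 8.53 on hypoxia vorinostat arrays and 8.90, 9.01 and 8.93 on normoxia vorinostat arrays, against 9.63, 9.44 and 9.69 on hypoxia solvent arrays and 9.37, 9.67 and 9.62 on normoxia solvent arrays. In PC-3, CDKN2A stood at 8.32, 8.29 and 8.47 on hypoxia vorinostat arrays and 8.77, 8.68 and 8.40 on normoxia vorinostat arrays, against 8.25, 8.08 and 8.61 on hypoxia solvent arrays and 8.75, 8.17 and 8.63 on normoxia solvent arrays. In 22Rv1, CDKN2A stood at 6.75, 6.60 and 6.56 on hypoxia vorinostat arrays and 7.17, 7.26 and 7.30 on normoxia vorinostat arrays, against 6.64, 6.35 and 6.68 on hypoxia solvent arrays and 7.37, 7.23 and 7.15 on normoxia solvent arrays. In DU 145 every vorinostat array lay below every solvent array, and in 22Rv1 every hypoxia array lay below every normoxia array.

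CDKN2A fell with vorinostat in DU 145, with a log2 change of -0.72 ± 0.10 (adjusted p = 5.7e-07, 6 of 6 arrays), the 1 fall among the members called for the drug. The change was 0.08 ± 0.10 in PC-3 (adjusted p = 0.621) and 0.04 ± 0.10 in 22Rv1 (adjusted p = 0.81). The effect in DU 145 was lower than in PC-3 by a difference of -0.80 ± 0.14 (adjusted p = 8.34e-05) and lower than in 22Rv1 by a difference of -0.76 ± 0.14 (adjusted p = 9.54e-05). The probe annotated to the p16INK4a transcript read 9.26, 9.48 and 8.98 on DU 145 hypoxia vorinostat arrays and 9.27, 9.52 and 9.38 on normoxia vorinostat arrays, against 9.92, 10.27 and 9.91 on hypoxia solvent arrays and 10.11, 9.59 and 9.82 on normoxia solvent arrays. It also fell in DU 145 (-0.62, adjusted p over all detected probes = 4.43e-05), with every vorinostat array below every solvent array, and was not called in PC-3 (-0.02) or 22Rv1 (-0.24, adjusted p = 0.101). Whether these probes tell the 2 transcripts apart was not tested, and the other CDKN2A probe was above background on 0 of 36 arrays.

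Hypoxia lowered CDKN2A in 22Rv1, with a log2 change of -0.61 ± 0.14 on vorinostat arrays (adjusted p = 0.0024) and -0.69 ± 0.14 on solvent arrays (adjusted p = 0.000792). On the p16INK4a probe the solvent change was -0.43 (adjusted p = 0.0724), where 16.5% of all detected probes were called. In DU 145 the hypoxia effect with solvent was 0.04 ± 0.14 (adjusted p = 0.92), and the difference of DU 145 from 22Rv1 was 0.73 ± 0.20 (adjusted p = 0.0286). That difference lost its call with median scaling (0.76, adjusted p = 0.0942), on the authors' processed values (0.43, adjusted p = 0.087) and when any of 6 single arrays was left out (adjusted p 0.0517 to 0.102), in a range of 0.0106 to 0.102 over the alternatives.

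CDKN2B codes for p15, the INK4 inhibitor induced by TGF-beta, and lies beside CDKN2A. In DU 145, CDKN2B stood at 7.29, 6.82 and 7.30 on hypoxia vorinostat arrays and 6.83, 6.57 and 7.06 on normoxia vorinostat arrays, against 6.66, 6.17 and 6.45 on hypoxia solvent arrays and 6.65, 6.66 and 6.64 on normoxia solvent arrays. In PC-3, CDKN2B stood at 8.0, 7.79 and 7.43 on hypoxia vorinostat arrays and 7.81, 7.69 and 7.70 on normoxia vorinostat arrays, against 7.83, 7.28 and 7.85 on hypoxia solvent arrays and 7.89, 7.56 and 7.86 on normoxia solvent arrays. In 22Rv1, CDKN2B read 5.86, 5.47 and 5.62 on hypoxia vorinostat arrays and 5.32, 5.60 and 5.28 on normoxia vorinostat arrays, against 5.68, 5.12 and 4.93 on hypoxia solvent arrays and 5.28, 5.22 and 4.80 on normoxia solvent arrays. In 22Rv1 all 6 vorinostat arrays were above background but only 1 hypoxia solvent and 0 normoxia solvent arrays were.

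CDKN2B rose with vorinostat in DU 145 by 0.44 ± 0.13 (adjusted p = 0.006, 5 of 6 arrays), with 0.71 ± 0.19 in hypoxia (adjusted p = 0.00271) and 0.17 ± 0.19 in normoxia (adjusted p = 0.521). In normoxic 22Rv1 the vorinostat arrays were at least 1.09-fold higher, and the fitted rise over both oxygen levels was 0.36 ± 0.13 (adjusted p = 0.0292, 6 of 6 arrays). That 22Rv1 call was lost on the authors' processed values (0.12, adjusted p = 0.191), with the mean of both probes (0.25, adjusted p = 0.0501) and without any 1 of 5 arrays: the first hypoxia vorinostat array (0.30, adjusted p = 0.0854), the second normoxia vorinostat array (0.31, adjusted p = 0.0822), the second or the third hypoxia solvent array (adjusted p = 0.0683 and 0.107) or the third normoxia solvent array (0.28, adjusted p = 0.103). Its adjusted p ran from 0.00418 to 0.191 over the alternatives. In PC-3 the change was 0.03 ± 0.13 (adjusted p = 0.913). The second detected CDKN2B probe was not called in DU 145 (0.16, adjusted p = 0.298) or PC-3 (0.06, adjusted p = 0.755), and in 22Rv1 it was above background on 0 hypoxia arrays, so no value is given. No hypoxia effect on CDKN2B was called on solvent or vorinostat arrays of the 3 lines, and 1 of 11 neighbouring pairs in the order of group means did not overlap.

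CDKN2D codes for p19, the INK4 inhibitor that varies through the cell cycle and is highest in S phase. Its promoter window, chr19:10568980-10569229 on the minus strand in GRCh38.p14, is shown beside that of CDKN1A because both genes rose with vorinostat in DU 145 and PC-3. Capitals mark the GC box core.
CDKN2D promoter: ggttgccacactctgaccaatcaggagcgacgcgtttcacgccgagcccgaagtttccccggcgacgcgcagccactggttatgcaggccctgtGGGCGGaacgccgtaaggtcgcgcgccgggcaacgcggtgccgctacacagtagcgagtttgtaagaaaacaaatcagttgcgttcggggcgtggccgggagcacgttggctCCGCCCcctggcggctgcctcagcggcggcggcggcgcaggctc
It holds 2 cores, against 4 before CDKN1A, 1 before CDKN1B and 2 before CDKN2B; CDKN1C has no window in the RefSeq table used. The hypoxia response core, ACGTG or GCGTG with CACGT or CACGC on the other strand, occurs 3 times before CDKN2D, 1 time before CDKN1A, CDKN1B and each CDKN2A start and 0 times before CDKN2B, and 43.2% of all windows hold it.

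In DU 145, CDKN2D stood at 9.52, 9.11 and 9.33 on hypoxia vorinostat arrays and 8.78, 8.39 and 8.85 on normoxia vorinostat arrays, against 8.19, 8.32 and 8.10 on hypoxia solvent arrays and 7.53, 7.46 and 7.39 on normoxia solvent arrays. In PC-3, CDKN2D stood at 8.85, 9.01 and 8.74 on hypoxia vorinostat arrays and 8.76, 8.84 and 8.49 on normoxia vorinostat arrays, against 8.28, 8.15 and 8.02 on hypoxia solvent arrays and 8.23, 7.75 and 7.81 on normoxia solvent arrays. In 22Rv1, CDKN2D stood at 10.29, 10.00 and 9.78 on hypoxia vorinostat arrays and 9.66, 9.59 and 9.69 on normoxia vorinostat arrays, against 9.79, 9.92 and 9.88 on hypoxia solvent arrays and 9.41, 9.55 and 9.38 on normoxia solvent arrays. The 4 DU 145 groups did not overlap and ran, from low to high, normoxia solvent, hypoxia solvent, normoxia vorinostat and hypoxia vorinostat.

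Vorinostat raised CDKN2D by 1.16 ± 0.10 in DU 145 (2.24-fold, adjusted p = 2.09e-11) and by 0.74 ± 0.10 in PC-3 (1.67-fold, adjusted p = 3.02e-07), on 6 of 6 arrays in each. In 22Rv1 the change was 0.18 ± 0.10 (adjusted p = 0.136). The effect in DU 145 exceeded that in PC-3 by 0.42 ± 0.14 (adjusted p = 0.0192), it exceeded that in 22Rv1 by 0.98 ± 0.14 (adjusted p = 1.02e-06), and the effect in PC-3 exceeded that in 22Rv1 by 0.56 ± 0.14 (adjusted p = 0.00215). Hypoxia with solvent raised CDKN2D in DU 145 by 0.74 ± 0.14 (adjusted p = 0.000277) and in 22Rv1 by 0.42 ± 0.14 (adjusted p = 0.0292), and the PC-3 change was 0.22 ± 0.14 (adjusted p = 0.303). The 22Rv1 call was lost with median scaling (0.29, adjusted p = 0.260) and without the first or the third normoxia solvent array (adjusted p = 0.081 and 0.098) or the second or the third hypoxia solvent array (adjusted p = 0.0929 and 0.0727), in a range of 0.00984 to 0.260 over the alternatives. On vorinostat arrays, hypoxia raised CDKN2D by 0.65 ± 0.14 in DU 145 (adjusted p = 0.00234) and by 0.38 ± 0.14 in 22Rv1 (adjusted p = 0.0457), a call that was lost under 8 of its 14 alternatives (adjusted p 0.016 to 0.736). In the order of group means, led by 22Rv1 hypoxia vorinostat arrays (10.02 ± 0.26), 5 of 11 neighbouring pairs did not overlap.

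Hypoxia without drug called 2 of 6 members in DU 145 (CDKN1A and CDKN2D, both higher) beside 14.7% of all genes, 1 of 6 in PC-3 (CDKN1A, higher) beside 16.9%, and 3 of 6 in 22Rv1 (CDKN1C and CDKN2D higher, CDKN2A lower) beside 20.2%. CDKN1C was not measured on DU 145 solvent arrays, and without it 2 of 5 were called in DU 145. On vorinostat arrays hypoxia called 2 of 6 in DU 145 (CDKN1C and CDKN2D) beside 8.97% of all genes and 3 of 6 in 22Rv1 (CDKN1C, CDKN2D and CDKN2A) beside 21.8%. In PC-3 limma called 0 of 6 on vorinostat arrays, beside 13.9% of all genes, 0 of 6 had an unadjusted p under 0.05, and with the replicate block 1 of 6 was called (CDKN1A). The hypoxia and drug comparisons of a line share their normoxia solvent arrays.

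**Figure D4:**
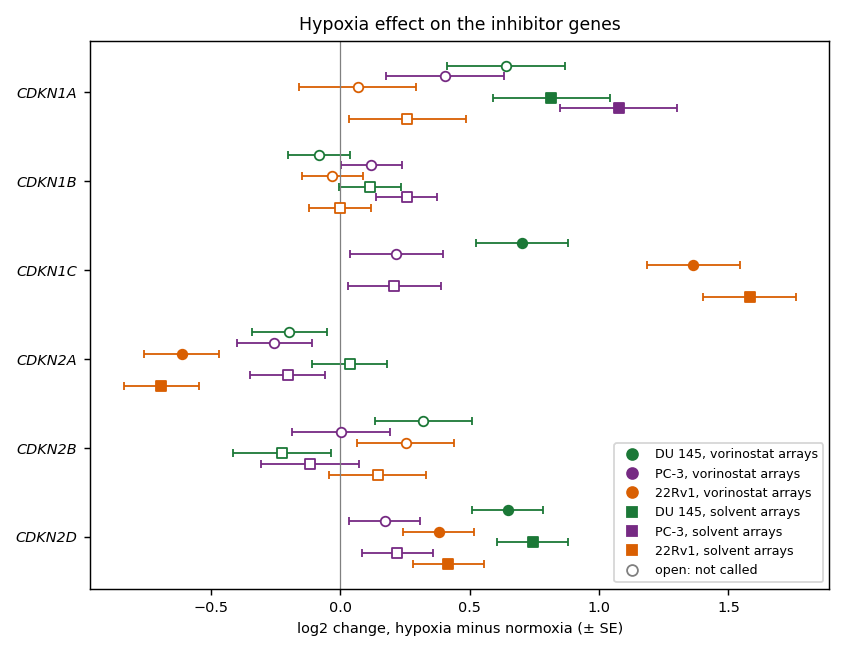
Hypoxia minus normoxia log2 change of each tested inhibitor in the 3 lines, on vorinostat arrays (circles) and solvent arrays (squares), with standard errors from limma. CDKN1C in 22Rv1 lies highest in both sets (1.36 and 1.58), and CDKN2A in 22Rv1 lies below 0 in both (-0.61 and -0.69). CDKN1C in DU 145 is drawn for vorinostat arrays alone, since both solvent groups were below background. This point and that of CDKN2B in 22Rv1 on solvent arrays are fitted changes with the normoxia group above background on 0 arrays.

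At single oxygen levels, vorinostat called 5 of 6 members in hypoxic DU 145 (41.3% of all genes) and 3 of 6 in normoxic DU 145 (40.7%). The normoxic count was 3 of 5 without CDKN1C, which was not measured in normoxic DU 145. Vorinostat called 3 of 6 in PC-3 in hypoxia (28.4%) and 3 of 6 in normoxia (25.7%), and in 22Rv1 1 of 6 in hypoxia (33.4%) and 2 of 6 in normoxia (31.3%). Whether the drug effect depended on oxygen was tested as the effect in hypoxia minus that in normoxia, and limma called 0 of 6 members in each line, beside 0.728% of all genes in DU 145, 0.0566% in PC-3 and 0.728% in 22Rv1. Without CDKN1C, whose dependence on oxygen was not measured in DU 145, the DU 145 count was 0 of 5. At an unadjusted p under 0.05 there were 2 members in DU 145, 1 in PC-3 and 0 in 22Rv1. These were CDKN2B in DU 145 (0.54 ± 0.27, adjusted p = 0.455), CDKN1A in PC-3 (-0.67 ± 0.32, adjusted p = 0.596) and CDKN1C in DU 145, for which no value is given because 3 of its 4 groups there had 0 arrays above background.

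The differences of the drug effect between lines, given above gene by gene, were called for 4 of 6 members between DU 145 and 22Rv1 (39.4% of all genes), for 4 of 6 between DU 145 and PC-3 (31% of all genes) and for 2 of 6 between PC-3 and 22Rv1 (28.2% of all genes). Without CDKN1C, whose drug effect over both oxygen levels was not measured in DU 145, 3 of 5 were called in each comparison of DU 145. The 3 differences share the arrays of each line. Differences of the hypoxia effect on solvent arrays, a comparison added after the data were seen, were called for 2 of 6 members between DU 145 and 22Rv1 (5.76% of all genes) and for 1 of 6 between PC-3 and 22Rv1 (5.19% of all genes). Without CDKN1C, the first count was 1 of 5 (CDKN2A). Between DU 145 and PC-3, limma called 0 of 6, or 0 of 5 without CDKN1C (2.85% of all genes), with 1 member at an unadjusted p under 0.05.

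The lines differed in the inhibitors before any exposure. On normoxia solvent arrays, 6 of 6 members were called between DU 145 and PC-3 (62.3% of all genes), 6 of 6 between DU 145 and 22Rv1 (64.8%) and 5 of 6 between PC-3 and 22Rv1 (68.4%), all with arrays that did not overlap. The shares of all genes whose arrays did not overlap were 62.8%, 69.7% and 72.1%. CDKN1B was lower in DU 145 than in 22Rv1 by a log2 difference of -1.92 ± 0.12 (adjusted p = 5.62e-15) and lower in PC-3 than in 22Rv1 by -2.83 ± 0.12 (adjusted p = 3.2e-19). CDKN1A was higher in DU 145 than in PC-3 by 1.67 ± 0.23 (adjusted p = 1.66e-07), and in PC-3 it was below 22Rv1 by a difference of -2.67 ± 0.23 (adjusted p = 7.81e-12). CDKN2A was highest in DU 145, above PC-3 by 1.04 ± 0.14 (adjusted p = 2.78e-07) and above 22Rv1 by 2.30 ± 0.14 (adjusted p = 7.69e-15), and on the p16INK4a probe these differences were 2.01 and 3.38. CDKN2B was at least 2.58-fold higher in DU 145 and at least 5.61-fold higher in PC-3 than in 22Rv1, whose normoxia solvent arrays were not above background. CDKN1C was at least 1.58-fold lower in DU 145 than in PC-3 and at least 1.71-fold lower in DU 145 than in 22Rv1, and PC-3 and 22Rv1 differed by -0.12 ± 0.18 (adjusted p = 0.58). CDKN2D was lower in DU 145 than in 22Rv1 (-1.98 ± 0.14, adjusted p = 7.41e-14) and than in PC-3 (-0.47 ± 0.14, adjusted p = 0.00391), the second of which lost its call without the first PC-3 normoxia solvent array (-0.32, adjusted p = 0.0569, 0.00116 to 0.0569 over the alternatives). Over the 12 groups, on the brightest probe of each gene, CDKN1B kept the order 22Rv1, DU 145, PC-3 in its group means, CDKN2A the order DU 145, PC-3, 22Rv1, and CDKN2B the order PC-3, DU 145, 22Rv1. The second CDKN1B probe did not keep its order, with 6.986 on PC-3 and 6.982 on DU 145 hypoxia vorinostat arrays.

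The targets and regulators of the inhibitors were taken as lists, beside 27.9% of all genes higher and 24.7% lower with vorinostat in DU 145, 19.8% and 19.7% in PC-3, and 22.9% and 22.4% in 22Rv1. Of 21 tested proliferation genes under RB and E2F control, 16 fell and 1 rose in DU 145 (median log2 change -0.53), 15 fell and 0 rose in PC-3 (-0.44), and 21 fell and 0 rose in 22Rv1 (-1.23). TYMS, thymidylate synthase, fell by 1.59 ± 0.09 in DU 145, fell by 0.87 ± 0.09 in PC-3 and fell by 2.34 ± 0.09 in 22Rv1 (largest adjusted p = 2.7e-09). MCM5, a subunit of the replicative helicase, fell by 1.09 ± 0.14 in DU 145 and 2.14 ± 0.14 in 22Rv1, and FOXM1, a factor that drives mitotic genes, fell by 0.80 ± 0.11 in PC-3. TK1, thymidine kinase, rose in DU 145 (0.36 ± 0.06, adjusted p = 2e-05).

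Of 11 tested kinases and cyclins, 2 rose and 4 fell in DU 145, 2 rose and 5 fell in PC-3, and 1 rose and 8 fell in 22Rv1, with medians of -0.10, -0.15 and -0.40. CCND3, a D cyclin whose partners the INK4 proteins bind, rose by 0.85 ± 0.08 in DU 145 and 0.81 ± 0.08 in PC-3. CDK4, the main INK4 target, fell by 0.79 ± 0.07 in DU 145 (adjusted p = 1.3e-10), and CDK6, its close relative, rose by 1.17 ± 0.16 in 22Rv1 (adjusted p = 2.4e-07). CCNA1, an A cyclin, had the largest fitted change of the list, 3.30 ± 0.21 in DU 145, where it was above background on 0 normoxia solvent arrays. The mitotic cyclin CCNB1 fell by 0.52 ± 0.08 in PC-3 and 0.94 ± 0.08 in 22Rv1.

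Of 13 tested RB family and E2F genes, 2 rose and 5 fell in DU 145, 2 rose and 3 fell in PC-3, and 2 rose and 6 fell in 22Rv1, with medians of -0.12, 0.03 and -0.30. TFDP2, a partner of E2F factors, rose in all 3 lines, by 0.36 ± 0.09 in DU 145, 0.51 ± 0.09 in PC-3 and 0.58 ± 0.09 in 22Rv1, while its relative TFDP1 fell by 0.95 ± 0.07 in DU 145 and 0.86 ± 0.07 in PC-3. E2F7, a repressor E2F, fell by 1.59 ± 0.11 in 22Rv1 (adjusted p = 7.2e-13).

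Of 19 tested genes for destruction and phosphorylation of the inhibitors, 9 rose and 6 fell in DU 145, 5 rose and 4 fell in PC-3, and 5 rose and 10 fell in 22Rv1, with medians of 0.08, 0.01 and -0.28. SKP2, the ubiquitin ligase subunit that marks p27 for destruction, fell by 0.80 ± 0.08 in PC-3 (adjusted p = 2.8e-09), and DTL, which directs the destruction of p21 in S phase, fell by 1.42 ± 0.09 in 22Rv1 (adjusted p = 1.2e-13). Of 26 tested transcription factors and repressors of the inhibitor genes, 8 rose and 9 fell in DU 145, 4 rose and 4 fell in PC-3, and 4 rose and 7 fell in 22Rv1. FOXO1, a factor that can raise CDKN1A and CDKN1B, rose by 0.90 ± 0.13 in DU 145, 1.18 ± 0.13 in PC-3 and 0.34 ± 0.13 in 22Rv1. HDAC1, a target of vorinostat, rose by 1.09 ± 0.06 in DU 145, and EZH2 and DNMT1, a polycomb and a DNA methyltransferase, fell by 0.67 ± 0.08 and 0.76 ± 0.09 in 22Rv1.

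Of 12 tested p53 targets other than CDKN1A, 2 rose and 4 fell in DU 145, 2 rose and 5 fell in PC-3, and 2 rose and 3 fell in 22Rv1, with medians of 0.07, -0.23 and 0.0018. GADD45A, a growth arrest gene, rose by 0.95 ± 0.11 in DU 145, 0.68 ± 0.11 in PC-3 and 0.50 ± 0.11 in 22Rv1. TP53I3, an oxidoreductase gene, fell by 0.55 ± 0.12 in DU 145 and 1.20 ± 0.12 in PC-3. Beside CDKN2A and CDKN2B, MTAP, an enzyme of methionine salvage, rose by 0.24 ± 0.07 in DU 145 and 0.54 ± 0.07 in PC-3 and fell by 0.30 ± 0.07 in 22Rv1.

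**Figure D5:**
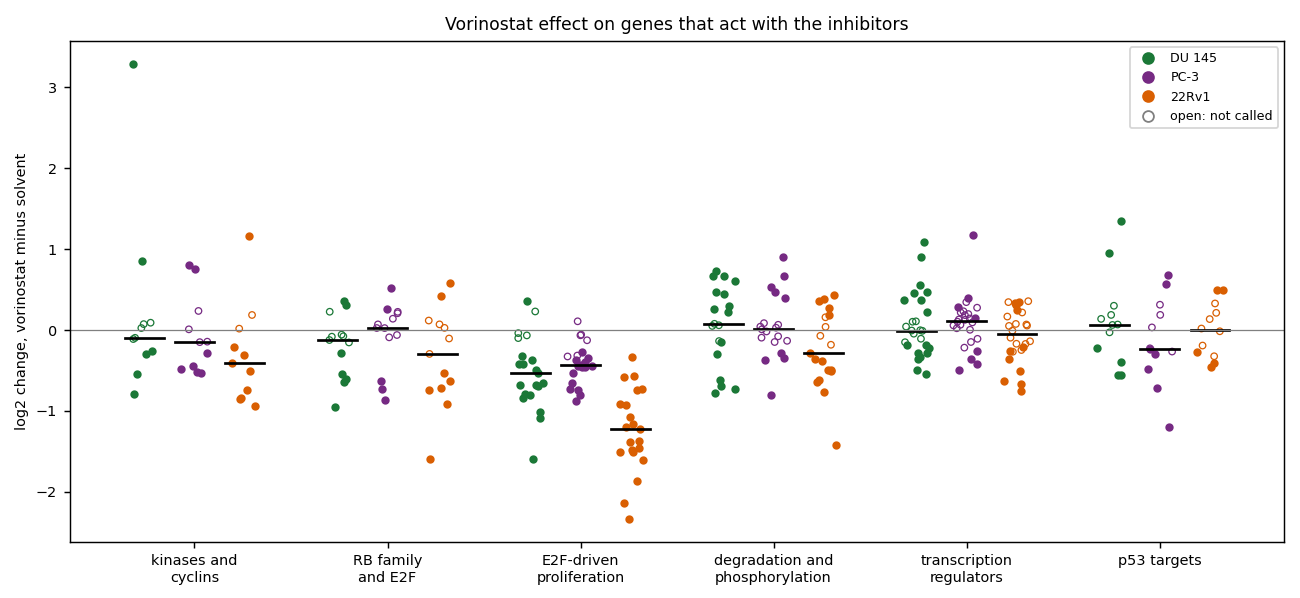
Vorinostat minus solvent log2 change (vertical axis) of each tested gene of the lists, by list and line, as means of both oxygen levels. Filled points were called, open points were not, and bars are list medians; the proliferation genes have medians of -0.53 in DU 145, -0.44 in PC-3 and -1.23 in 22Rv1.

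Hypoxia without drug was set against the same lists, beside 7.84% of all genes higher and 6.91% lower in DU 145, 7.35% and 9.53% in PC-3, and 9.89% and 10.3% in 22Rv1. Of the 21 proliferation genes, 1 rose and 0 fell in DU 145, 0 rose and 2 fell in PC-3, and 0 rose and 7 fell in 22Rv1, where MCM5 fell by 0.93 ± 0.20. Of the 11 kinases and cyclins, 2 rose in DU 145, 1 rose and 2 fell in PC-3, and 4 fell in 22Rv1. CDK4 fell by 0.60 ± 0.10 in PC-3 and CDK2 fell by 0.46 ± 0.10 in 22Rv1. Among the regulators, HIF1A, the oxygen-regulated factor subunit, fell by 1.95 ± 0.22 in DU 145 and 1.46 ± 0.22 in PC-3. KLF4, a factor that can raise CDKN1A, rose by 1.47 ± 0.20 in PC-3, and FOXO3 rose by 0.57 ± 0.16 in DU 145 and 0.97 ± 0.16 in 22Rv1.

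Genes whose response pattern was most like each member were named by Pearson correlation over the 12 group means after centring on each line, among 9575 tested genes with a centred range of at least 0.5. The points share arrays, lines and normalization, so the correlations are a description. For CDKN1A these were ZDHHC3 (0.976), TMED7 (0.968) and PSMA2 (0.965). For CDKN2D they were GDF11 (0.983), RNF5 (0.976) and TSC22D1 (0.972), and for CDKN1C, whose DU 145 means are mostly below background, STAT3 (0.975), RNF150 (0.961) and NXPH4 (0.960). For CDKN1B they were TRNP1 (0.965), CD24 (0.963) and TGFA (0.946), for CDKN2A CCZ1P-OR7E38P (0.957), ENTPD6 (0.943) and MRPL49 (0.938), and for CDKN2B CPEB4 (0.955), ACTR6 (0.952) and NRXN2 (0.946).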

How the data were processed

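The raw table that the authors deposited holds, per the file headers, a linear-scale signal intensity for each probe and array and a detection p-value beside it. BeadStudio 3.1.3.0 is named per the submitters' processing notes. The authors' deposited processed table also holds intensity values, linear as judged from their range and in the same rank order as the raw signal, with column medians of 110.8 to 110.9. Its normalization is not given in the sources used here, and it served only as an alternative. The genome build of the probes is not given in the sources used here, so gene coordinates are not printed. Promoter sequences are RefSeq's on GRCh38.p14.

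Signals were background corrected and quantile normalized with neqc (limma 3.58.1, R 4.3.3, version 1.17.8 of data.table, offset 16, background from the deposited detection p) and put on the log2 scale. Probes needed a detection p under 0.01 on at least 3 of 36 arrays, which left 21376 probes, and each gene was read on its brightest such probe by mean signal (12360 genes). A limma model with 12 group means on all 36 arrays gave each comparison (29.5 degrees of freedom after moderation), called at an adjusted p under 0.05. Where none of a group's arrays had a probe above background, the level there is only a bound, taken from the lowest signal among probes above background. 0 array pairs were identical and 0 columns of sample values were unused.

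The members, the lists and the tests were chosen with earlier results of these data known, and hypoxia effects between lines were added after the data were seen. Names follow a rule: all members with every probe, at most the 2 largest called rises and falls of a list in a line, and the 3 genes most like each member, among which examples are given. Alternatives were median scaling, cyclic loess, the authors' processed values, no filter, a filter of 12 arrays, the mean of a gene's probes, only the arrays of the lines compared, the replicate number as a block, and each array left out. The pairing of same-numbered arrays comes from the data alone: all their deviations correlated at over 0.1 in 5 of 12 comparisons of 2 groups. The model was tested on simulated data with independent noise and, for each gene, the same spread in every group. That test does not cover arrays that deviate together or a spread that differs between lines. Figures were drawn with matplotlib 3.10.9.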

Additional observations from a re-analysis of the deposited data

Results flagged for a closer look

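These values are differences of an effect between lines, each called by limma in the same 36-array model, with its Benjamini-Hochberg adjusted p; the differences of 1 gene share the arrays of a line. For CDKN1A, the vorinostat effect in DU 145 minus that in 22Rv1 was 0.77 (adjusted p = 0.00759). For CDKN1B, the effect in DU 145 minus that in PC-3 was -0.48 (adjusted p = 0.00264), a call lost under 1 of 32 alternatives (median scaling, adjusted p = 0.0756).

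For CDKN1C, the vorinostat effect was lower in PC-3 than in 22Rv1 by a difference of -1.35 (adjusted p = 7.3e-07). Its hypoxia effect on solvent arrays in PC-3 minus that in 22Rv1 was -1.37 (adjusted p = 0.000647). In DU 145 these effects on CDKN1C were not measured, since both groups of a pair were below background.

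For CDKN2A, the vorinostat effect in DU 145 minus that in PC-3 was -0.80 (adjusted p = 8.34e-05) and minus that in 22Rv1 -0.76 (adjusted p = 9.54e-05), and the hypoxia effect in DU 145 minus that in 22Rv1 was 0.73 (adjusted p = 0.0286). The call of that hypoxia difference was lost under 8 of 20 alternatives (adjusted p up to 0.102). For CDKN2D, the vorinostat effect in DU 145 exceeded that in 22Rv1 by 0.98 (adjusted p = 1.02e-06) and that in PC-3 by 0.42 (adjusted p = 0.0192), and the effect in PC-3 exceeded that in 22Rv1 by 0.56 (adjusted p = 0.00215).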

How the results depend on the processing

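The tests rest on 3 arrays a group, and signal over background limits what can be said of CDKN1C in DU 145 and CDKN2B in 22Rv1. Each of the 154 measured log2 changes of the members was set against its alternatives, and the counts are pairs of a change and an alternative. Under alternatives other than leaving out an array, 1163 pairs kept their direction and their side of the threshold. In 32 pairs the sign turned, in 16 a call was lost and in 21 a call was gained. With single arrays left out the counts were 1397, 65, 34 and 16. No call turned into a call of the other sign, and the values that turned sign were not called. With median scaling the median of all genes moved to -0.12 for hypoxia in PC-3 with vorinostat, to -0.18 for hypoxia in 22Rv1 with vorinostat and to -0.20 for DU 145 against 22Rv1. The causes of the changes below were not tested. In what follows, the interaction is how far the drug effect in hypoxia exceeded the normoxic one.

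With median scaling, the members called came to 1 for hypoxia in DU 145 with solvent (reported: 2) and 1 for the hypoxia effect in DU 145 minus 22Rv1 (reported: 2). The member left in the second count was CDKN1C, which was not measured in DU 145 there, while CDKN2A lost its call. Under that scaling, the genes called out of all tested came to 888 for hypoxia in DU 145 with solvent (reported: 1823), 1170 for hypoxia in PC-3 with solvent (reported: 2086), 456 for hypoxia in DU 145 with vorinostat (reported: 1109) and 14 for the interaction in DU 145 (reported: 90). By median scaling, the genes called out of all tested came to 2 for the interaction in PC-3 (reported: 7), 107 for the hypoxia effect in DU 145 minus PC-3 (reported: 352), 327 for the hypoxia effect in DU 145 minus 22Rv1 (reported: 712) and 339 for the hypoxia effect in PC-3 minus 22Rv1 (reported: 641). Median scaling turned the sign for CDKN1B for vorinostat in DU 145 (0.016), CDKN2A for vorinostat in PC-3 (-0.015), CDKN2B for vorinostat in PC-3 (-0.061), CDKN2A for vorinostat in hypoxic PC-3 (-0.12) and CDKN2B for vorinostat in hypoxic PC-3 (-0.075). Under median scaling, the sign turned for CDKN2A for vorinostat in normoxic 22Rv1 (0.067), CDKN2A for hypoxia in DU 145 with solvent (-0.0056), CDKN1B for hypoxia in PC-3 with vorinostat (-0.053), CDKN2B for hypoxia in PC-3 with vorinostat (-0.17) and CDKN1A for hypoxia in 22Rv1 with vorinostat (-0.13). By the same scaling, the sign turned for CDKN2B for the interaction in PC-3 (-0.028), CDKN1C for the interaction in PC-3 (-0.13), CDKN2A for the interaction in 22Rv1 (-0.024) and CDKN2A for the drug effect in PC-3 minus 22Rv1 (-0.070). With cyclic loess, the members called came to 2 for vorinostat in hypoxic 22Rv1 (reported: 1). With cyclic loess, the genes called out of all tested came to 14 for the interaction in PC-3 (reported: 7). With cyclic loess, the sign turned for CDKN2A for vorinostat in normoxic 22Rv1 (0.094), CDKN2B for hypoxia in PC-3 with vorinostat (-0.0055), CDKN1C for the interaction in PC-3 (-0.031) and CDKN2A for the drug effect in PC-3 minus 22Rv1 (-0.049). On the authors' processed values, the members called came to 1 for the hypoxia effect in DU 145 minus 22Rv1 (reported: 2). Here too CDKN2A lost its call, and the member left was CDKN1C, not measured in DU 145. On the authors' processed values, the genes called out of all tested came to 29 for the interaction in PC-3 (reported: 7). On the authors' processed values, the sign turned for CDKN2D for the interaction in DU 145 (0.013), CDKN1C for the interaction in PC-3 (-0.00091) and CDKN1C for the interaction in 22Rv1 (0.11). With the mean of all detected probes of a gene, the members called came to 2 for vorinostat in hypoxic 22Rv1 (reported: 1) and 2 for hypoxia in PC-3 with solvent (reported: 1). With the mean of all detected probes of a gene, the sign turned for CDKN2A for vorinostat in 22Rv1 (-0.10), CDKN1B for vorinostat in normoxic DU 145 (-0.068), CDKN2A for vorinostat in hypoxic PC-3 (-0.0028), CDKN2A for vorinostat in hypoxic 22Rv1 (-0.084) and CDKN1B for hypoxia in 22Rv1 with solvent (0.038). With the mean of all detected probes of a gene, the sign turned for CDKN2B for hypoxia in PC-3 with vorinostat (-0.11), CDKN1B for hypoxia in 22Rv1 with vorinostat (0.14), CDKN1B for the interaction in 22Rv1 (0.10), CDKN2B for the interaction in 22Rv1 (-0.13) and CDKN1B for the drug effect in PC-3 minus 22Rv1 (-0.076). With the mean of all detected probes of a gene, the sign turned for CDKN2B for the hypoxia effect in DU 145 minus PC-3 (0.14). With only the arrays of the lines compared, the members called came to 1 for vorinostat in hypoxic PC-3 (reported: 3) and 2 for vorinostat in hypoxic 22Rv1 (reported: 1). With only the arrays of the lines compared, the genes called out of all tested came to 2103 for vorinostat in normoxic PC-3 (reported: 3176), 1048 for hypoxia in PC-3 with solvent (reported: 2086), 3786 for hypoxia in 22Rv1 with solvent (reported: 2492) and 588 for hypoxia in DU 145 with vorinostat (reported: 1109). With only the arrays of the lines compared, the genes called out of all tested came to 660 for hypoxia in PC-3 with vorinostat (reported: 1719), 4 for the interaction in DU 145 (reported: 90), 0 for the interaction in PC-3 (reported: 7) and 150 for the hypoxia effect in DU 145 minus PC-3 (reported: 352).

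Same-numbered arrays tended to deviate together: the mean correlation of their deviations was 0.158 in DU 145, 0.256 in PC-3 and 0.050 in 22Rv1, against -0.079, -0.128 and -0.025 for arrays of other numbers, and in 31, 35 and 30 of 36 cases an array correlated best with its own number. Deviations from a group mean cancel within the group, so the values for other numbers follow from the same-number values and are not separate evidence. Every pair passed 0.1 in 5 of 12 comparisons of 2 groups (lowest 0.193 for vorinostat in hypoxic DU 145, 0.247 for hypoxia in DU 145 with vorinostat, 0.30 for vorinostat in normoxic PC-3, 0.151 for hypoxia in PC-3 with solvent and 0.211 for hypoxia in PC-3 with vorinostat) and not in the other 7, which include all 4 of 22Rv1. The labels do not say what the number marks, so the block is an alternative. With the replicate block, the members called came to 3 for vorinostat in hypoxic 22Rv1 (reported: 1), 1 for hypoxia in PC-3 with vorinostat (reported: 0) and 2 for the hypoxia effect in PC-3 minus 22Rv1 (reported: 1). With the replicate block, the genes called out of all tested came to 193 for the interaction in DU 145 (reported: 90), 46 for the interaction in PC-3 (reported: 7), 637 for the hypoxia effect in DU 145 minus PC-3 (reported: 352) and 1077 for the hypoxia effect in DU 145 minus 22Rv1 (reported: 712). With the replicate block, the genes called out of all tested came to 985 for the hypoxia effect in PC-3 minus 22Rv1 (reported: 641). The block called CDKN1A in 5 further comparisons: vorinostat in hypoxic 22Rv1 (0.50, adjusted p = 0.0032), hypoxia with vorinostat in DU 145 (0.64, adjusted p = 0.00168) and PC-3 (0.40, adjusted p = 0.0307), and PC-3 minus 22Rv1 for the drug (0.58, adjusted p = 0.00121) and hypoxia effect (0.82, adjusted p = 0.00574). It also called CDKN2B for vorinostat in hypoxic 22Rv1 (0.41, adjusted p = 0.0383) and for the drug effect in DU 145 minus PC-3 (0.42, adjusted p = 0.0368), and CDKN1B for that in DU 145 minus 22Rv1 (-0.29, adjusted p = 0.0373).

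With 1 array left out at a time, members called ranged over 1 to 2 for hypoxia in DU 145 with solvent, 1 to 2 for the hypoxia effect in DU 145 minus 22Rv1, 1 to 3 for hypoxia in DU 145 with vorinostat, 1 to 2 for vorinostat in normoxic 22Rv1, 1 to 2 for vorinostat in hypoxic 22Rv1 and 2 to 4 for vorinostat in 22Rv1. Where CDKN2A lost its call for the hypoxia effect in DU 145 minus 22Rv1, the member left was CDKN1C, not measured in DU 145. The genes called out of all tested ranged over 578 to 1167 for hypoxia in DU 145 with vorinostat, 49 to 106 for the interaction in DU 145, 232 to 531 for the hypoxia effect in DU 145 minus PC-3, 0 to 18 for the interaction in PC-3 and 1094 to 1964 for hypoxia in PC-3 with vorinostat. CDKN1A ran over -0.32 to 0.00061 for the interaction in DU 145. CDKN1B ran over -0.011 to 0.11 for vorinostat in normoxic DU 145, -0.21 to 0.029 for hypoxia in DU 145 with vorinostat, -0.13 to 0.066 for the interaction in 22Rv1 and -0.10 to 0.058 for hypoxia in 22Rv1 with vorinostat. CDKN1B ran over -0.10 to 0.10 for hypoxia in 22Rv1 with solvent. CDKN1C ran over -0.33 to 0.065 for PC-3 against 22Rv1 and -0.21 to 0.19 for the interaction in PC-3. CDKN1C ran over -0.30 to 0.10 for vorinostat in normoxic PC-3 and -0.21 to 0.046 for vorinostat in hypoxic PC-3. CDKN2A ran over -0.054 to 0.11 for hypoxia in DU 145 with solvent, -0.17 to 0.12 for the interaction in PC-3, -0.049 to 0.11 for the drug effect in PC-3 minus 22Rv1 and -0.012 to 0.15 for vorinostat in PC-3. CDKN2A ran over -0.073 to 0.22 for vorinostat in normoxic PC-3, -0.067 to 0.20 for vorinostat in hypoxic PC-3, -0.054 to 0.058 for vorinostat in normoxic 22Rv1 and -0.014 to 0.068 for vorinostat in 22Rv1. CDKN2A ran over -0.026 to 0.14 for vorinostat in hypoxic 22Rv1 and -0.023 to 0.14 for the interaction in 22Rv1. CDKN2B ran over -0.29 to 0.023 for the hypoxia effect in DU 145 minus PC-3, -0.14 to 0.025 for vorinostat in normoxic PC-3, -0.068 to 0.10 for vorinostat in PC-3 and -0.10 to 0.24 for vorinostat in hypoxic PC-3. CDKN2B ran over -0.13 to 0.16 for hypoxia in PC-3 with vorinostat, -0.065 to 0.27 for the interaction in PC-3, -0.22 to 0.069 for hypoxia in PC-3 with solvent and -0.077 to 0.30 for hypoxia in 22Rv1 with solvent. CDKN2B ran over -0.025 to 0.16 for the drug effect in DU 145 minus 22Rv1 and -0.049 to 0.33 for the interaction in 22Rv1. CDKN2D ran over -0.24 to 0.0063 for the interaction in DU 145, -0.20 to 0.041 for the interaction in PC-3 and -0.17 to 0.084 for the interaction in 22Rv1.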
